A study of Mus musculus with 2 samples.

Results

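Glycolysis, glucose transport and hypoxia genes were read in 2 cell populations sorted from the mouse otocyst, the epithelial vesicle that forms the inner ear. The group holds 49 genes, listed by name as members of these pathways, of 18194 genes that a probe set of the array named alone. Of the 49, 45 had such a probe set, with 101 probe sets in all. Gpi1, Eno1, Pfkfb1 and G6pdx had none and were not analysed here. Eno2, Pdk4 and Adm lay at or below the floor of both arrays, which left 42 measured genes.

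Both populations came from otocysts of embryos at E10.5, heterozygous for the transgene Tg(ETAR-EGFP)14Imeg, and both went through the same trypsin dissociation and fluorescence sort. The EGFP-positive population represents, per the labels, mainly ventral and dorsomedial otocyst, and the EGFP-negative population includes the dorsolateral part, which lacks EGFP. Each population was measured once, on 1 array with RNA prepared from 1 µg of total RNA, and the number of embryos behind each pool is not stated. With 1 array per population no test was possible, and all values describe these 2 libraries. Values are MAS5 signals, a linear measure of probe set brightness, and ratios are EGFP-positive over EGFP-negative on the log2 scale. A signal below the floor, set at the 40th percentile of its array (10.4 EGFP-positive, 12.4 EGFP-negative), was raised to it before the ratio was taken. The only error available is the spread (SD) of log2 ratios among the probe sets that report on a common gene. It was 0.41 at mean signals under 50, 0.33 between 50 and 200, and 0.25 over 200, and it does not cover variation between embryos, sorts or hybridisations.

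Glycolysis splits glucose into pyruvate, which is either reduced to lactate or passed to the mitochondria. The pentose phosphate pathway branches from it and yields NADPH and ribose. When oxygen is scarce, prolyl hydroxylases stop marking the HIF alpha subunits for destruction, and HIF then binds short elements with the core ACGTG or GCGTG and raises transcription of glucose transporters, glycolytic enzymes and lactate dehydrogenase A. Early mammalian embryos are known to rely strongly on glycolysis before the placental circulation is established.

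Most of the pathway was at nearly the same signal in both populations. Of the 42 measured genes, 37 were within 2-fold, and 34 (81.0%) were within 1.5-fold, as were 77.7% of all 13363 measured genes. Only Ldhb exceeded 2-fold towards EGFP-positive cells (2.38% of the members), where 2.90% of all measured genes were. Slc2a3, Pfkp, Epas1 and Egln3 exceeded 2-fold towards EGFP-negative cells (9.52% of the members), where 7.63% of all measured genes were. Both shares are near the background. The median log2 ratio of the members was -0.03, and that of all measured genes was 0.00317.

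**Figure D1:**
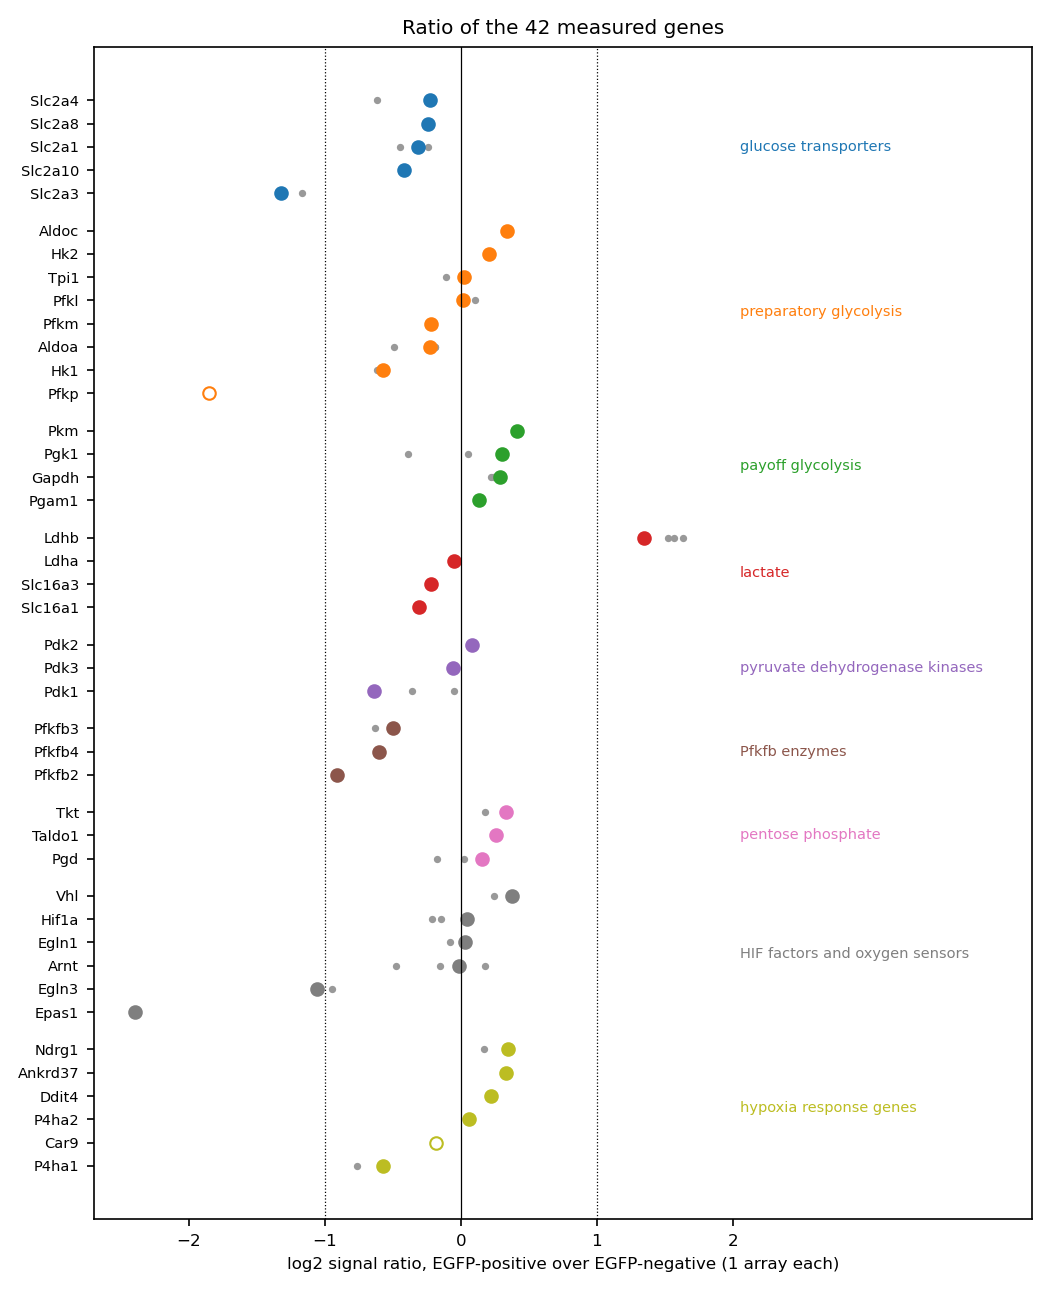
Log2 signal ratio (EGFP-positive over EGFP-negative, 1 array each) of the 42 measured genes by role; large points are the brightest probe set of each gene, open points have 1 signal at the floor, small grey points are further probe sets above the floor in both arrays, and dotted lines mark 2-fold. Ldhb alone lies right of the upper line, and Slc2a3, Pfkp, Epas1 and Egln3 lie left of the lower line.

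Marker genes of several cell types differed between the libraries. The marker lists were chosen with earlier results of these data known, so their counts are not an independent test. Of all measured genes, 2.90% exceeded 2-fold towards EGFP-positive and 7.63% towards EGFP-negative cells. All 7 epithelial markers (Epcam, Cdh1, Cldn6, Cldn7, Krt8, Krt18 and Esrp1) were higher in EGFP-positive cells, with log2 ratios from 1.30 to 1.73 and summed signals of 8003.5 against 2905.6. All measured markers of other cell types exceeded 2-fold towards EGFP-negative cells. Their median log2 ratios were -4.13 for 8 mesenchyme, -5.16 for 7 erythroid, -2.20 for 7 endothelial, -3.07 for 6 leukocyte and -3.33 for 6 hindbrain markers. The sizes depend on the floor, because 2, 5, 4, 3 and 4 of them, in that order, were at it in EGFP-positive cells. A 60th percentile floor gave -3.41, -3.48, -1.02, -1.74 and -1.65, with 3 of 5 measured endothelial and 5 of 6 hindbrain markers past 2-fold. Every measured mesenchyme, erythroid and leukocyte marker stayed past 2-fold there. Taking the median over probe sets left 5 of 6 leukocyte markers past it. These markers go against a purely epithelial EGFP-negative library, which is what its label names. In bulk RNA of this kind, fewer cells of a type and less RNA per cell cannot be told apart.

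**Figure D2:**
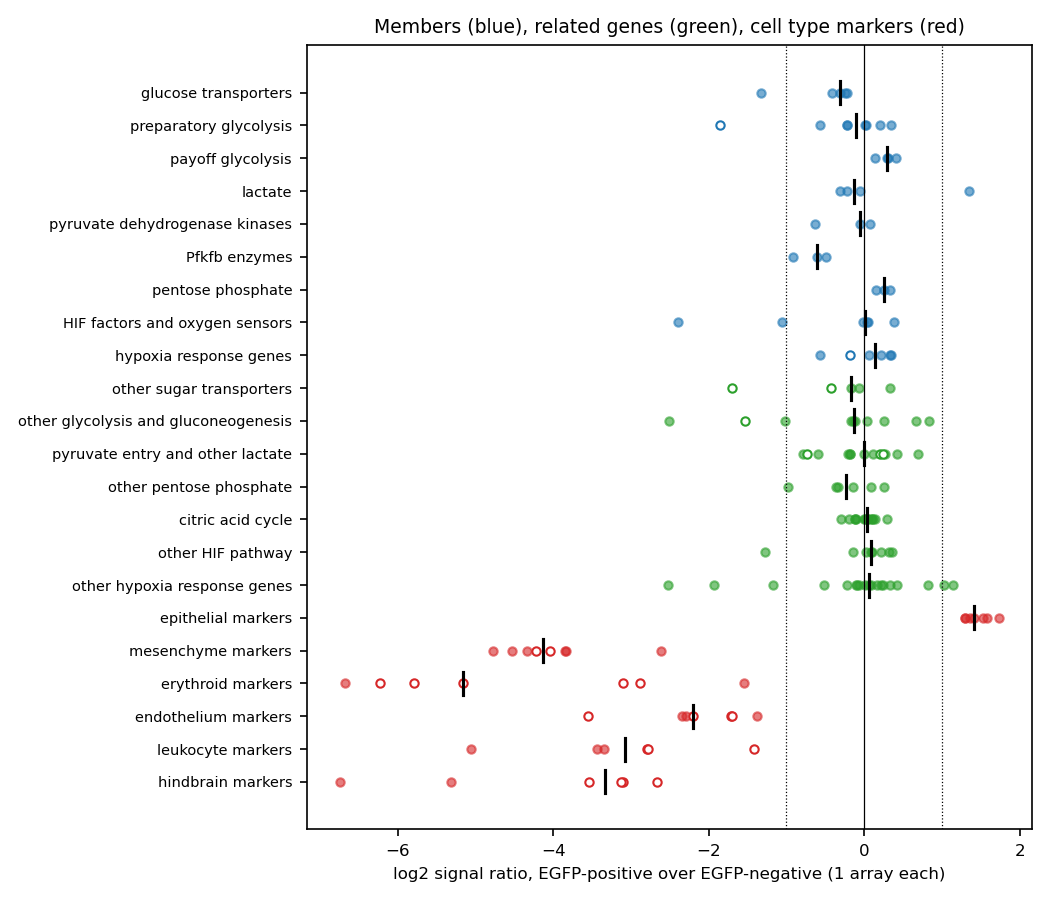
Log2 signal ratio of each measured gene (points; open where 1 signal is at the floor) and the list median (bar) for the 9 role groups (blue), related pathway lists (green) and cell type markers (red), 1 array per population. The medians of the pathway lists lie between -0.60 (Pfkfb enzymes) and 0.30 (the second part of glycolysis), whereas epithelial markers lie between 1.30 and 1.73 and the medians of other cell types between -5.16 and -2.20.

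Glucose enters cells through facilitative transporters of the Slc2a family. By their brightest probe set all 5 members had a lower signal in EGFP-positive cells, with a median log2 ratio of -0.31. Of all 13363 measured genes, 6626 had a ratio below 0 and 6712 above it. Slc2a1, which encodes the widespread transporter GLUT1, read 1068.6 in EGFP-positive against 1328.7 in EGFP-negative cells, 1.24-fold apart, and its 3 probe sets had log2 ratios from -0.44 to -0.24. Slc2a3, which encodes the high-affinity transporter GLUT3, had 135.6 against 339.1, 2.50-fold higher in EGFP-negative cells. All 3 Slc2a3 probe sets above the floor in both arrays went the same way, from -1.32 to -1.16, a log2 difference from Slc2a1 of -1.01 between the brightest probe sets. Slc2a3 is known from neurons and white blood cells, and hindbrain (6 of 6, summed signals 40.9 against 2492.6) and leukocyte markers (6 of 6, 56.0 against 1052.1) were higher in the same library. Their part in the Slc2a3 ratio was not tested. Slc2a4, the insulin-responsive transporter gene, Slc2a8 and Slc2a10 were dim and within 1.5-fold, at -0.22, -0.25 and -0.42. The SD between probe sets at their signals was 0.41, 0.33 and 0.41, so their directions are not firm. The second probe set of Slc2a10 stood at 0.76, with its EGFP-negative signal at the floor, so the direction for this gene depends on the probe set.

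The first part of glycolysis, from hexokinase to triose phosphate isomerase, spends ATP and cleaves the sugar. Of 8 measured genes, 7 were within 1.5-fold, with a list median of -0.10. The hexokinase genes, which trap glucose in the cell, leaned apart. Hk1 read 123.5 in EGFP-positive against 183.8 in EGFP-negative cells, with log2 ratios of -0.57 and -0.62 for its probe sets, and Hk2 had 388.1 against 336.0, at 0.21, which centring on the hybridisation controls turned to -0.04.

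Phosphofructokinase catalyses the committed step and has liver, muscle and platelet isoforms. Pfkl, the liver isoform gene, had 641.9 against 636.5, and its 3 probe sets stood between 0.01 and 0.10. Pfkm, the muscle isoform gene, had 170.5 against 198.6, at -0.22. Pfkp, the platelet isoform gene, read 7.4 in EGFP-positive cells, below the floor, against 37.6 in EGFP-negative cells. No fold is given for Pfkp because its EGFP-positive signal lies below the floor of 10.4. That signal is also below the highest bacterial control probe set of the array, 12.3. At this signal the ratio rests on the floor, and with the floor at the 60th percentile it was -0.18. Downstream, Aldoa, an aldolase gene, had 1820.9 against 2131.6, with 5 probe sets from -0.49 to -0.19, while Aldoc had 64.8 against 51.2, at 0.34. Tpi1, which encodes triose phosphate isomerase, had 2029.2 against 1999.7, at 0.02.

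The second part of glycolysis, which yields ATP, leaned towards EGFP-positive cells by less than 1.5-fold. All 4 measured genes were above 0, with a median log2 ratio of 0.30, where 6712 of all 13363 measured genes were above 0. Pgam1, however, turned to -0.11 when the arrays were centred on the hybridisation controls, a setting that lowers every ratio by 0.25. Gapdh had signals of 6702.2 against 5477.1, at 0.29, and its 3 probe sets stood between 0.22 and 0.29. Pgk1, which encodes phosphoglycerate kinase, had 3795.5 against 3076.8, at 0.30, but its 3 probe sets spread from -0.39 to 0.30. Pgam1, the phosphoglycerate mutase gene, had 1886.2 against 1716.6, at 0.14. Pkm, the pyruvate kinase gene, had 3066.7 against 2304.7, at 0.41, the highest ratio of this part. With that centring the median of the list was 0.05. The Gapdh control gave 3' to 5' signal ratios of 0.819 in EGFP-positive against 0.849 in EGFP-negative cells.

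**Figure D3:**
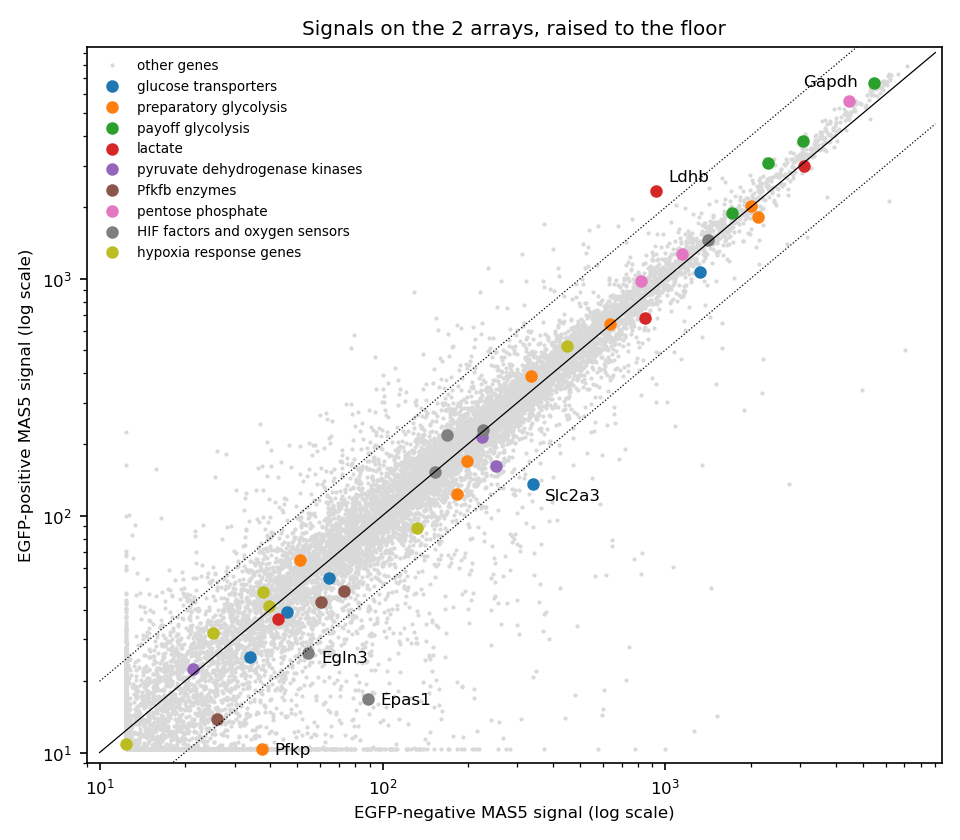
MAS5 signals in EGFP-negative (x) and EGFP-positive cells (y), both on log axes and raised to each array's floor, for all measured genes (grey) and the pathway members (coloured by role); the solid line marks equality and dotted lines 2-fold. Most members follow the solid line from the floor to Gapdh at 5477.1 and 6702.2, and Ldhb lies above the upper dotted line.

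Lactate dehydrogenase is built from A and B subunits, and its genes diverged. Ldha, whose subunit favours lactate formation, read 2990.8 in EGFP-positive against 3099.4 in EGFP-negative cells, at -0.05. Ldhb, whose subunit favours oxidation of lactate to pyruvate, had 2354.1 against 927.0, 2.54-fold higher in EGFP-positive cells. The 4 probe sets of Ldhb had log2 ratios between 1.34 and 1.63 (SD 0.12 between probe sets), and Ldhb exceeded Ldha by 1.40 on the log2 scale. The Ldhb ratio fell in the range of the 7 epithelial markers, from 1.30 to 1.73, and their part in it was not tested. The monocarboxylate transporter genes Slc16a1 and Slc16a3, which carry lactate across the membrane, had 682.8 against 846.0 and 36.7 against 42.8, at -0.31 and -0.22.

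The promoters of the paired genes that diverged, Ldha with Ldhb and Egln1 with Egln3, are shown with those of Pfkp, the other diverging isozyme gene with an entry, and Pgk1, a textbook HIF target. Each is the 250 bases before a RefSeq transcription start in build GRCm38.p6, written 5′ to 3′ on the gene's strand, with capitals marking ACGTG or GCGTG on either strand.
Ldha chr7:46845554-46845803 (+ strand): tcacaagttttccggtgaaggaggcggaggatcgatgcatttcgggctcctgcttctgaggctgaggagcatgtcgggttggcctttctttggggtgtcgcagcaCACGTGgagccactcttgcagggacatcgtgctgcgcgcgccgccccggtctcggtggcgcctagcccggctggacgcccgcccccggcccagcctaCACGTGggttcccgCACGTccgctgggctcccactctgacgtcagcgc
Ldha chr7:46846832-46847081 (+ strand): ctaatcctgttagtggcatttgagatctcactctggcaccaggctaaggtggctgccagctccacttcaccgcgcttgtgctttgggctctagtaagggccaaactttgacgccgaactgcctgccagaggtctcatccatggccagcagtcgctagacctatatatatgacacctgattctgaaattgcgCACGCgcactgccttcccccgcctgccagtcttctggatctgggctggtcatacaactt
Ldhb chr6:142507958-142508207 (- strand): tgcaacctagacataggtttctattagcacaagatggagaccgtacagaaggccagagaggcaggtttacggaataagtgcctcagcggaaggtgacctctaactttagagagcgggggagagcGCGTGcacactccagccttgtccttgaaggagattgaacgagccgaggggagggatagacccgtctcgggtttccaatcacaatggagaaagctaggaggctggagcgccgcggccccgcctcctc
Egln1 chr8:124949255-124949504 (- strand): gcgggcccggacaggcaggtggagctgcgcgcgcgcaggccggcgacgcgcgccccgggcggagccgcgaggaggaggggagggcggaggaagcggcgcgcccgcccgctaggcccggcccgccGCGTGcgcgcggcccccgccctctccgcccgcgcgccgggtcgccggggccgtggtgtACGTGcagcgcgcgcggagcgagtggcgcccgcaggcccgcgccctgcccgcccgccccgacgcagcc
Egln3 chr12:54203875-54204124 (- strand): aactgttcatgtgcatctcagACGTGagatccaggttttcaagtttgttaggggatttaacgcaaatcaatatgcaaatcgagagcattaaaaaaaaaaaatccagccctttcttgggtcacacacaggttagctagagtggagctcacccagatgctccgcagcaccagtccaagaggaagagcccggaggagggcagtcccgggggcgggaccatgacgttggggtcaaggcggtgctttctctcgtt
Pfkp chr13:6648772-6649021 (- strand): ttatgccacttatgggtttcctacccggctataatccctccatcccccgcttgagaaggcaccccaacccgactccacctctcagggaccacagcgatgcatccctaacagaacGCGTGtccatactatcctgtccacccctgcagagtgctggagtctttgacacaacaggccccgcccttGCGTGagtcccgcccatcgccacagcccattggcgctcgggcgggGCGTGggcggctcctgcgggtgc
Pgk1 chrX:106186850-106187099 (+ strand): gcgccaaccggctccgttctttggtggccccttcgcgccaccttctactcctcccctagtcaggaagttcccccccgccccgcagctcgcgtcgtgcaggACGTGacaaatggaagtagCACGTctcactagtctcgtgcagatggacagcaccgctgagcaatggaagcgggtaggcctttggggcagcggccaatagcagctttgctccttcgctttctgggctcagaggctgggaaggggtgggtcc
Ldha has 2 starts in the table. The window of its upstream start held ACGTG 5 times, 4 of them in CACGTG, which reads as ACGTG on both strands and is counted once per strand. The window of its downstream start held GCGTG once and no ACGTG, as did the Ldhb window. Egln1 held each core once, Egln3 held ACGTG once, Pfkp held GCGTG 3 times and Pgk1 held ACGTG 2 times.

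Promoter entries were found for 45 of the 49 genes, all but Epas1, Ndrg1, Slc2a3 and Slc2a4, in 65 windows because some genes have several starts. Of these windows 76.9% held ACGTG or GCGTG, against 38.6% of 32851 windows of all genes. These windows belong to 27025 genes, a set not limited to the 18194 genes read here. ACGTG was in 26 of the 65 against 16.6% of all windows, and GCGTG in 36 of the 65 against 28.2%. The GC content was 59.5% in the members' windows and 53.2% in all windows, and its part in these shares was not tested. HIF targets such as Pgk1 and Pdk1 are among the genes listed by name, so the shares are not an independent test. Windows of 1 gene can overlap, and a match is a run of letters and not a bound site. All 6 windows of the hypoxia response group held a core, and every measured gene of that group was within 2-fold. The genes are not all the same, since Ndrg1 was measured but has no window and Adm has a window but was not measured.

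Pyruvate dehydrogenase kinases switch off the entry of pyruvate into the citric acid cycle. Pdk1, a HIF target, read 161.9 in EGFP-positive against 251.5 in EGFP-negative cells, at -0.64, and its 3 probe sets above the floor in both arrays spread from -0.64 to -0.05. Pdk2 had 22.5 against 21.3 and Pdk3 had 215.6 against 224.5, at 0.08 and -0.06. Pdk4 had 10.1 and 8.2, below both floors.

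The Pfkfb enzymes make and remove fructose 2,6-bisphosphate, the strongest activator of phosphofructokinase. All 3 measured genes had a lower signal in EGFP-positive cells, with a median log2 ratio of -0.60, where 6626 of all 13363 measured genes were below 0. Pfkfb2 had 13.8 against 26.0, at -0.91, close to the floor, and Pfkfb3 had 43.0 against 60.7, at -0.50 and -0.63 by its probe sets. Pfkfb4, a HIF target, had 48.0 against 72.9, at -0.60. The 3 genes stayed within 2-fold, but with centring on the hybridisation controls Pfkfb2 passed that limit.

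The pentose phosphate genes had a median log2 ratio of 0.26 over 3 measured genes, which was 0.0083 after centring on the hybridisation controls, where Pgd turned to -0.09. Tkt, which encodes transketolase, had signals of 5605.9 against 4463.0, at 0.33, and its 3 probe sets stood between 0.17 and 0.33. Taldo1, the transaldolase gene, had 976.0 against 817.3, at 0.26. Pgd, which encodes the NADPH-forming 6-phosphogluconate dehydrogenase, had 1269.6 against 1140.6, at 0.15, with 4 probe sets from -0.18 to 0.15.

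The hypoxia regulators diverged by paralogue. Hif1a, the broadly expressed alpha subunit gene, read 1454.6 in EGFP-positive against 1411.9 in EGFP-negative cells, at 0.04, with 3 probe sets from -0.21 to 0.04. Epas1, which encodes HIF-2 alpha and is best known from endothelium, had 16.9 against 89.1, 5.27-fold higher in EGFP-negative cells. The log2 ratio of Epas1 was -2.40, and that of Epas1 minus that of Hif1a was -2.44. The size depends on the processing, since a floor at the 60th percentile gave -1.42 for Epas1, no floor -1.68 and the median over its probe sets -1.37. Its other probe set read 2.7 against 13.1, the same way but at the floor in EGFP-positive cells. All 7 endothelial markers were higher in the EGFP-negative library, with summed signals of 67.9 against 456.3, and Pecam1, Cdh5, Tie1 and Emcn were below the floor in EGFP-positive cells. Their part in the Epas1 ratio was not tested. Arnt, the shared beta subunit gene, had 152.4 against 153.8, at -0.01, with 4 probe sets from -0.47 to 0.17.

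Among the oxygen sensors, Egln1, the main HIF prolyl hydroxylase gene, had signals of 230.7 against 225.8, at 0.03 and -0.08 by its probe sets. Egln3, a hydroxylase gene that HIF itself induces, had 26.3 in EGFP-positive against 54.7 in EGFP-negative cells, 2.08-fold apart, at -1.06 and -0.94 by its probe sets. Its distance from the 2-fold limit is smaller than the SD of 0.41 for such dim probe sets, and it fell within 2-fold in 3 of 8 other settings. Vhl, which encodes the ubiquitin ligase subunit that recognises hydroxylated HIF, had 219.1 against 168.8, at 0.38 and 0.24.

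The hypoxia response genes stayed within 1.5-fold, with a median log2 ratio of 0.14 over 6 measured genes. Ddit4, a stress-induced inhibitor of mTOR signalling, had signals of 520.6 against 447.4, at 0.22. P4ha1, a collagen prolyl hydroxylase gene, was the lowest at -0.58, with 88.8 against 132.3, and its second probe set stood at -0.77. Its substrates are collagens, and all 8 mesenchyme markers, 3 of them collagen genes, were higher in the same library, with summed signals of 320.4 against 5494.4, whose part in this ratio was not tested. P4ha2 had 41.4 against 39.7, at 0.06. Ndrg1 had 32.0 against 25.2, at 0.34, and Ankrd37 had 47.6 against 37.9, at 0.33. Car9, a carbonic anhydrase gene and a common hypoxia marker, had 10.9 and 10.6, near or below the floor in both. Because the EGFP-negative floor is the higher, Car9 entered the median at -0.19, although its EGFP-positive signal was not the lower. With the floor at the 20th percentile Car9 stood at 0.04. Adm, the adrenomedullin gene, had 7.5 and 12.2.

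Other genes of these pathways were taken from 7 related lists of 98 genes. Of 76 measured, 66 were within 2-fold. Towards EGFP-positive cells 2 exceeded it, beside 2.90% of all measured genes, and towards EGFP-negative cells 8 did, beside 7.63%, shares again near the background. The median log2 ratio was 0.0098. All 15 measured genes of the citric acid cycle, which oxidises pyruvate carbon, were within 1.5-fold, from -0.30 (Ogdh) to 0.29 (Mdh2), with Idh3a at -0.20 and Suclg2 at 0.14. None of the 13 measured genes of pyruvate entry and lactate passed 2-fold, but Mpc1 did, at -1.03, with centring on the hybridisation controls and Slc16a7 did, at -2.31, with the floor at the 20th percentile. Mpc1, a mitochondrial pyruvate carrier gene, stood at -0.79, Slc16a7 at -0.73 with its EGFP-positive signal at the floor, Pdp1 at -0.60, and Emb, which encodes a partner of lactate transporters, at 0.69.

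Several of the lower related genes are isozymes of blood cells. Pklr, the liver and red cell pyruvate kinase gene, read 13.8 in EGFP-positive against 78.4 in EGFP-negative cells, 5.68-fold apart, in contrast to Pkm at 0.41. Bpgm, which makes 2,3-bisphosphoglycerate in red cells, had 233.5 against 471.6, 2.02-fold apart, with 3 probe sets from -1.01 to -0.93. Without _x_at and _s_at probe sets Hk3 and Bpgm (-0.93) were within 2-fold, and with the floor at the 60th percentile Pklr stood at -1.24. All 7 measured erythroid markers were higher in the same library, with summed signals of 2158.1 against 9346.7, and 5 of them were below the floor in EGFP-positive cells. Hbb-y alone gave most of both sums, with 2121.4 in EGFP-positive against 6191.1 in EGFP-negative cells, at -1.55. That Hbb-y value is from an _x_at probe set, and the Hbb-y probe set without this mark read 539.2 against 5311.4, at -3.30. Hk3, a leukocyte hexokinase gene, had 1.1 against 30.2 by a probe set prone to cross-hybridisation (_x_at) and 7.4 against 16.7, at -0.68, by its other probe set, and all 6 leukocyte markers were higher there too. The part of these cells in the 3 ratios was not tested. Eno3, an enolase gene, leaned the other way with 658.9 against 368.6, at 0.84.

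In the list of other Slc2a and Slc5a transporter genes, Slc2a13 had 7.5 against 33.7 and Slc2a9 had 5.4 against 14.0. Both EGFP-positive signals lie below the floor, so the Slc2a13 ratio of -1.70 rests on it. Neither gene was measured with the floor at the 60th percentile. Slc2a12 and Slc2a5 stood at 0.33 and -0.18. In the pentose phosphate list, Prps1, which makes phosphoribosyl pyrophosphate, had 262.5 against 516.5, at -0.98, and Rpia, H6pd and Pgls stood at -0.37, -0.33 and 0.25. In the HIF pathway list, Hif3a, which encodes a further alpha subunit, had 62.7 against 152.1, 2.43-fold higher in EGFP-negative cells. Its other probe sets above the floor in both arrays were nearer 0, the least different at -0.55, and the median over its probe sets was -0.58. Hif1an, Arnt2 and Cited2 stood at 0.35, 0.31 and 0.21. The list of further hypoxia response genes holds 23 genes, of which 19 were measured. With the median over probe sets, 4 of these exceeded 2-fold towards EGFP-negative and 0 towards EGFP-positive cells. Of all 13390 genes measured that way, 947 and 323 did. By the brightest probe set 3 exceeded 2-fold towards EGFP-negative cells, beside 7.63% of all measured genes. Towards EGFP-positive cells 2 did, beside 2.90%. The 3 were Angptl4, a lipase inhibitor gene (24.6 against 141.9, 5.77-fold), Hmox1, the heme oxygenase gene (16.4 against 62.7, 3.82-fold), and Plin2, a lipid droplet gene (248.9 against 563.5, 2.26-fold). Angptl4 was read from a probe set of the shared kind (_s_at) alone, and Hmox1 came within 2-fold, at -0.91, with the floor at the 60th percentile. Higher in EGFP-positive cells were Stc2 (36.3 against 16.5, 2.20-fold), whose second probe set went the other way at -0.90, and Plod2, a collagen lysyl hydroxylase gene named after its values were seen (608.8 against 299.7, 2.03-fold, with a second probe set at 0.65). Both came within 2-fold in 4 of 8 other settings, Stc2 ranging from -0.047 to 1.34 and Plod2 from 0.77 to 1.02.

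Brightness set how firmly these values can be read. Of the members, 21 had a mean signal over 200, among which Ldhb was past 2-fold in EGFP-positive and Slc2a3 in EGFP-negative cells, while 2.01% and 2.15% of all genes in that range were. Another 11 had a mean signal under 50, where 13.7% of all genes exceeded 2-fold towards EGFP-negative cells, and Pfkp and Egln3 belong to these. Of 21 members with several probe sets above the floor in both arrays, 15 had all of them on the same side of 0 and 6 did not. The 6 were Arnt, Egln1, Hif1a, Pgd, Pgk1 and Tpi1, all within 1.5-fold by the brightest probe set. The same share over all genes was not taken, so 15 of 21 cannot be called high or low for these arrays.

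**Figure D4:**
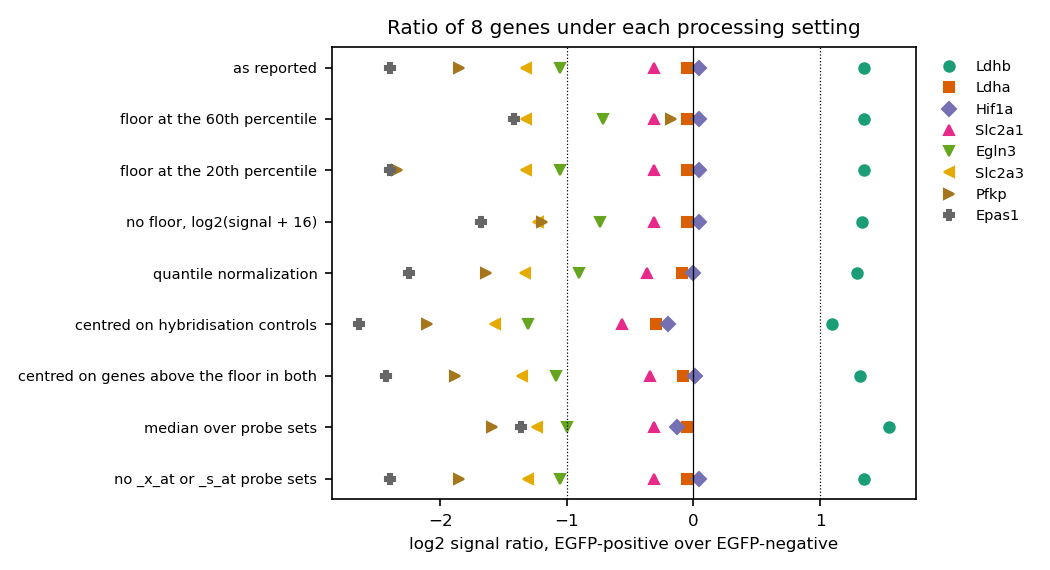
Log2 signal ratio (EGFP-positive over EGFP-negative) of 8 genes as reported and under 8 other processing settings; dotted lines mark 2-fold. Ldhb stays right of the upper line and Slc2a3 and Epas1 left of the lower line in every setting, whereas Egln3 and Pfkp cross it in some.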

How the data were processed

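The authors deposited linear intensities from 2 Affymetrix arrays, 45101 probe sets each, condensed with MAS5 version 5.0 per the submitters' processing notes. In both columns the mean after trimming 2% at each end was 100.0, so the arrays had been scaled to a common level. Detection calls and scaling target were not used here. The platform annotation named 1 gene for 34958 probe sets, several for 932 and none for 9211, with symbols updated by gene identifier through the GRCm38.p6 RefSeq table. Each gene was read from its brightest probe set. Signals were raised to the array's 40th percentile and genes at the floor in both arrays were left out. The 27 bacterial control probe sets reached 12.3 (EGFP-positive) and 9.0 (EGFP-negative). With 1 array per population no p-value is given and the number of arrays limits the precision. Every member is named, and up to 4 genes with the largest ratio from each related list. The members and lists were chosen with earlier results of these data known. Alternatives changed the floor, the normalization or the choice of probe set. The procedure was tested on simulated data (Python 3.11.15, pandas 2.3.3), with changes far larger than 2-fold planted only in genes well above the floor. That test does not cover calls near 2-fold or calls in dim genes.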

Additional observations from a re-analysis of the deposited data

How the results depend on the processing

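No paired analysis was possible because each population has 1 array, and for the same reason no replicate could be left out. Across 8 alternatives Ldhb was the only member past 2-fold towards EGFP-positive cells, at log2 ratios from 1.10 to 1.54. The count of members past 2-fold towards EGFP-negative cells was 4, and ranged from 2 to 5. It was 2 (Epas1 and Slc2a3) with the floor at the 60th percentile, because that floor raises the dim signals of Pfkp and Egln3. Slc2a3 stayed between -1.57 and -1.23 and Epas1 between -2.65 and -1.37. Pfkp ranged from -2.35 to -0.18 and Egln3 from -1.30 to -0.72. The members' median moved between -0.28, with centring on 12 hybridisation control probe sets (the bioB sets had no signal above the floor), and 0.01. With that centring the median of all genes was -0.24, and 225 and 1442 genes were past 2-fold, against 388 and 1019 as reported and 503 and 823 after quantile normalization. Raising the floor to the 60th percentile gave 237 and 478, lowering it to the 20th gave 711 and 1954, and without a floor, with 16 added to each signal, the counts were 238 and 647. Of 554 values of the named genes, 525 moved by less than the SD between probe sets and 28 by more. Centring on the hybridisation controls lowers every ratio by 0.2477, and centring on genes above the floor in both arrays by 0.0309. Both shifts lie below the smallest SD, 0.2489, so the 71 values under each centring were bound to be among the 525. Likewise, a changed floor cannot move ratios of genes well above it. Among ratios past 2-fold as reported, only that of Stc2 reversed, to -0.047 with the floor at the 60th percentile, where its EGFP-negative signal is raised to the floor. Sign changes of smaller ratios, such as those of Hk2, Pgam1, Pgd and Slc2a10, were not counted as reversals. Without the probe sets marked as shared or cross-hybridising, Aldoa, Angptl4 and Slc2a12 could not be read and Slc2a10 stood at 0.76. Dim genes are limited by signal over background.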
